A study of Saccharomyces cerevisiae with 3 samples.

Results

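Molecular chaperones keep proteins folded and pull apart those that have aggregated, and cochaperones steer their ATP cycles. The 34 budding yeast genes described here encode the main Hsp100, Hsp90, Hsp70, Hsp40, Hsp60 and small heat shock proteins of the cytosol, ribosome, mitochondria and endoplasmic reticulum, together with cochaperones and the regulator HSF1. They were chosen by the name of their gene, and no measured value enters the rule, although the list was drawn up with earlier results of these data known. All 34 were measured, by 57 of the 10807 probes, out of 5598 genes in all. In yeast, many of these genes are switched on by Hsf1, the heat shock transcription factor, and some also by Msn2 and Msn4, the general stress activators that protein kinase A holds back when glucose is plentiful. Several chaperones exist as paralog pairs in which one gene is transcribed steadily in growing cells and its partner mainly under stress. The ribosome-bound chaperones are the exception, since their genes are known to be transcribed along with those of ribosomal proteins.

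The study compared a gcr1 null mutant, which lacks the activator of glycolytic genes Gcr1, with wild type yeast. Both strains grew in rich medium with 3% pyruvate, were sampled at 0 min, and then received glucose and were sampled at 20 and 60 min. RNA from both strains was hybridised together on 1 two-colour Agilent array per time, so 3 arrays were used and no time has a replicate. The strain background, the construction of the null allele and the amount of glucose are not stated in the labels. A ratio in total RNA of a culture cannot tell apart less of a transcript per cell and fewer cells that carry it.

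Each value is a log2 ratio of the strains, and which strain is the numerator is not stated in the labels. The mutant is named first in the titles and the design text, which makes mutant over wild type likely. GPM1, a glycolytic gene whose transcription is known to need Gcr1, had -5.55 at 0 min, the sign that mutant over wild type would give. GCR1 itself had 0.97 (0 min), 0.91 (20 min) and 1.51 (60 min). With its 2 probes inside the deletion, that would be the sign of wild type over mutant; outside it, they are no check. For this reason a ratio is called positive, the side of GCR1, or negative, and no strain is named as the higher one.

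A gene was counted when its ratio was at least 2-fold, a log2 value of at least 1.0 in size. With 1 array per time there is no test and no p-value, and counts are set beside the same share over all genes. The error that could be measured was the gap between 2 probes of a gene on the same array. It was below 0.41 (0 min), 0.48 (20 min) and 0.38 (60 min) for 95% of the genes with 2 probes, and the 23 chaperone genes with 2 probes had medians of 0.09, 0.06 and 0.06 and no gap above those limits. This gap leaves out variation between cultures, RNA preparations and labelling. The other 11 chaperone genes were read by 1 probe, namely HSP104, HSP42, HSC82, CPR6, AHA1, SBA1, ZUO1, SIS1, SSQ1, ECM10 and KAR2.

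On pyruvate the chaperone genes differed little between the strains, and after glucose they spread apart, as all genes did. The median absolute deviation over all genes was 0.21 (0 min), 0.67 (20 min) and 0.63 (60 min). None of the chaperone genes, 0 of 34, passed 2-fold on either side at 0 min, where 1.09% of all genes were positive and 2.25% negative, and the chaperone genes ranged from -0.51 to 0.50 with a median of -0.02. At 20 min the positive count was 12 of 34 (35.3%) and the negative count 0, against 17.1% and 16.5% of all genes. At 60 min these counts were 9 (26.5%) and 3 (8.82%), against 16.2% and 13.6% of all genes. The chaperone median was 0.75 at 20 min and 0.30 at 60 min, where all genes had medians of -0.08 and 0.05. Values above 0 were found for 16 (0 min), 25 (20 min) and 23 (60 min) of the 34, against 59.2%, 47.1% and 52.1% of all genes.

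**Figure D1:**
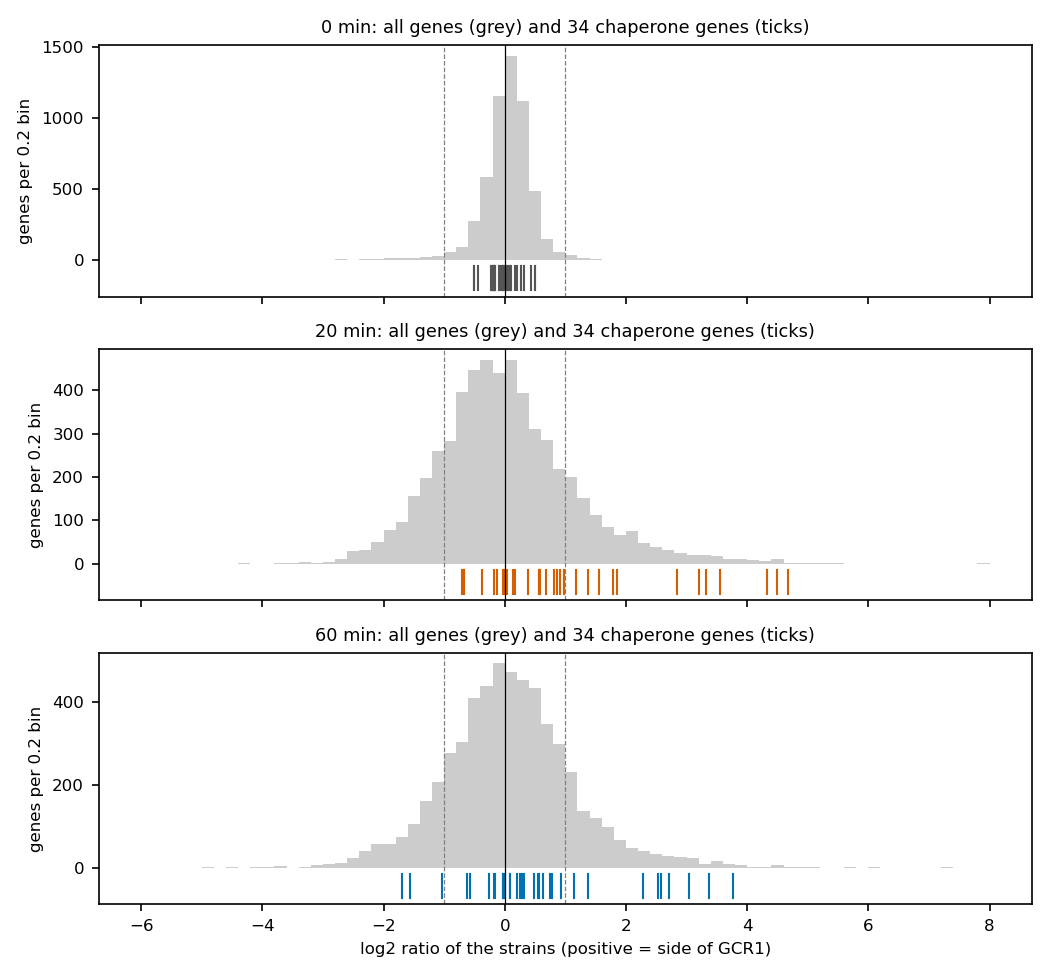
Histograms of the log2 ratio of the strains for all genes (grey, genes per bin of 0.2) at 0, 20 and 60 min, with a tick below the axis for each of the 34 chaperone genes and dashed lines at 2-fold. The ticks lie between -0.51 and 0.50 at 0 min, between -0.71 and 4.67 at 20 min and between -1.69 and 3.77 at 60 min.

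The chaperone genes differed in whether, when and on which side they passed 2-fold. HSP104, HSP78, HSP26, HSP42, HSP82, SSA1, SSE2 and SIS1 were at least 2-fold positive at both 20 and 60 min. CPR6, SBA1, SSA4 and MDJ1 were so at 20 min and below 2-fold at 60 min, and FES1 was so at 60 min and below 2-fold at 20 min. SSB1, SSB2 and ZUO1 were at least 2-fold negative at 60 min. The remaining 18 genes were within 2-fold on all 3 arrays, among them HSC82, SSA2, SSA3, SSE1, YDJ1, KAR2 and HSF1. The share of all genes in each of these groups across arrays was not counted. The group sizes are therefore not read as particular to chaperones. Subtracting each array's median put SSC1 and HSP60 past 2-fold at 20 min too, which made 14 genes, and took the share of all genes to 18.5%. Scaling the arrays to equal spread took HSP26 (0.94 at 20 min, 0.87 at 60 min) and ZUO1 (-0.86 at 60 min) below 2-fold.

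**Figure D2:**
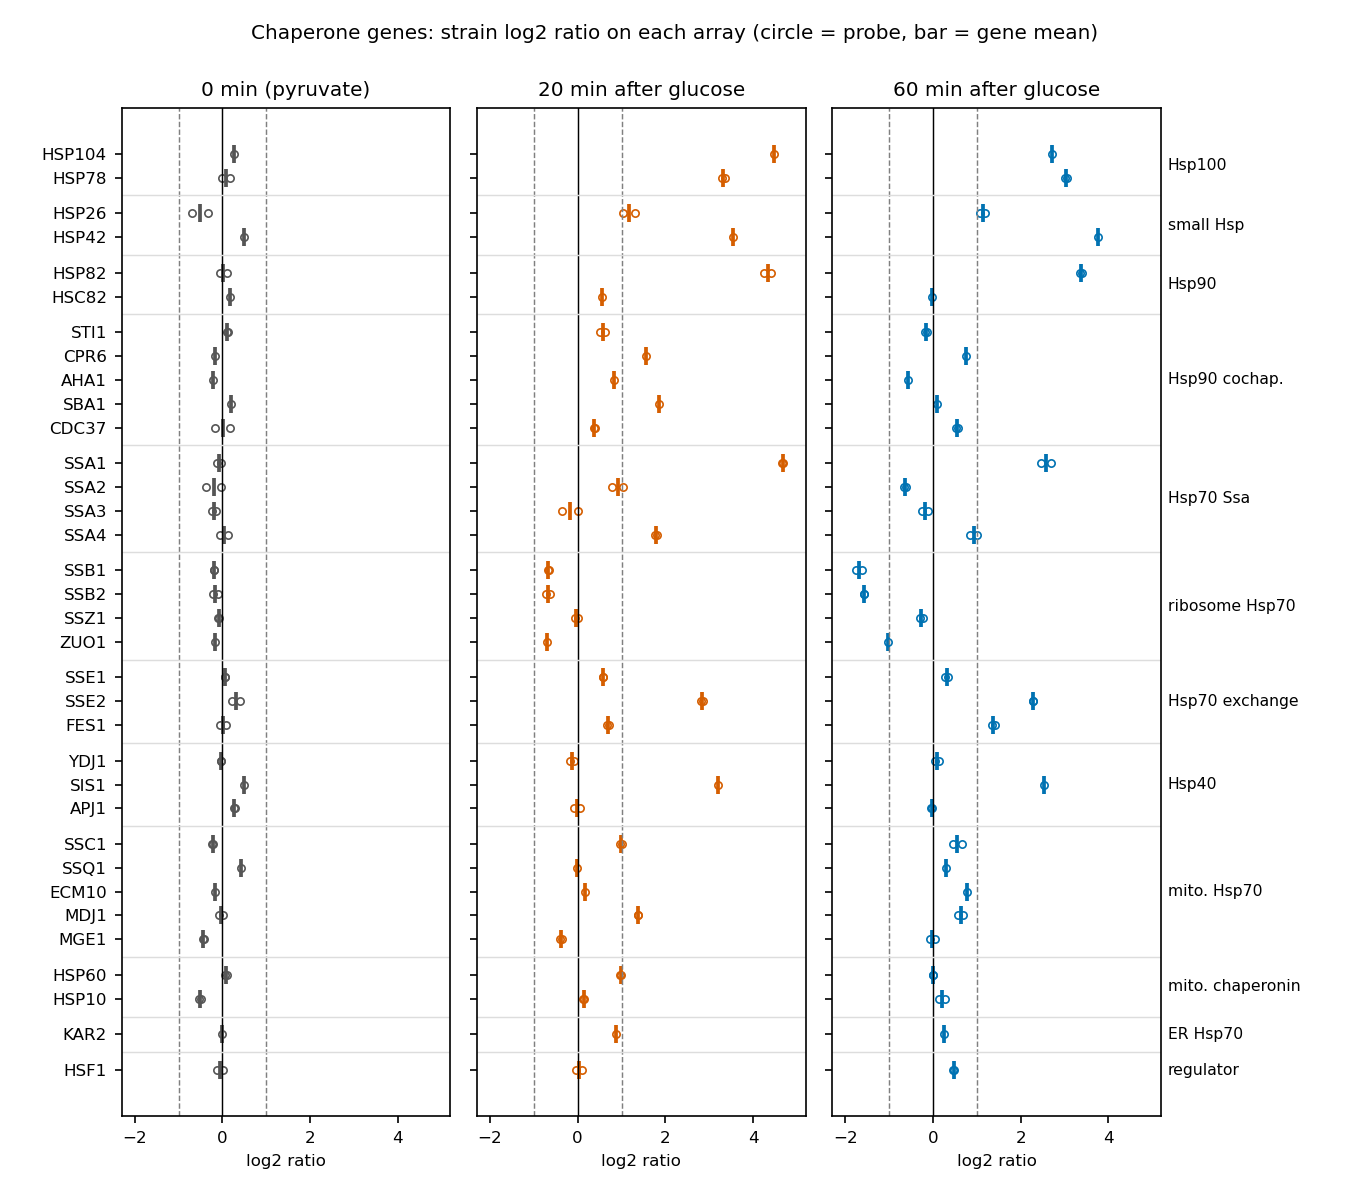
Log2 ratio of the strains on each array for the 34 chaperone genes, grouped by family, with open circles for single probes, bars for the mean of a gene and dashed lines at 2-fold. At 20 min the values reach 4.67 for SSA1, 4.49 for HSP104 and 4.33 for HSP82, while SSB1, SSB2 and ZUO1 lie on the negative side.

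Disaggregases were far on the positive side after glucose. HSP104 (YLL026W) encodes the cytosolic Hsp100 that extracts proteins from aggregates, and it had 0.27 (0 min), 4.49 (20 min) and 2.70 (60 min). Its 22.4-fold ratio at 20 min ranked 19 of 5597 genes. HSP78 (YDR258C), which encodes the mitochondrial Hsp100, had 0.08, 3.32 and 3.04 at the same times. Both genes were near 0 on pyruvate and at least 6.52-fold positive after glucose, but HSP104 was 1.78 lower at 60 than at 20 min and HSP78 0.28 lower. The difference for HSP78 was smaller than the 95% limit of the probe gap on either array.

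The small heat shock proteins, which bind unfolding proteins and keep aggregates accessible, were positive after glucose at unequal size. HSP42 (YDR171W), which works in growing cells as well as under stress, had 0.50 (0 min), 3.55 (20 min) and 3.77 (60 min), and at 60 min its 13.6-fold ratio was the highest of the 34 and ranked 25 of 5596 genes. HSP26 (YBR072W), whose transcript is known to accumulate in stationary and stressed cells, had -0.51, 1.17 and 1.14. HSP26 was the most negative of the 34 at 0 min, with probes at -0.34 and -0.68, and changed side after glucose. Neither gene came back toward 0 by 60 min by more than the probe gap limit, as the difference of 60 minus 20 min was 0.22 for HSP42 and -0.04 for HSP26.

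The 2 Hsp90 genes, whose products mature kinases and other client proteins, were split. HSP82 (YPL240C), the stress-induced form, had 0.02 (0 min), 4.33 (20 min) and 3.37 (60 min). HSC82 (YMR186W), the form made steadily in growing cells, had 0.18, 0.56 and -0.02. HSP82 thus stood 3.77 above HSC82 at 20 min, a 13.7-fold gap between the ratios, and 3.39 above it at 60 min, and the difference at 0 min was -0.16. The probes of HSP82 gave 4.25 and 4.41 at 20 min, and HSC82 had 1 probe. The genes are paralogs and their probes may bind each other's cRNA, which was not tested, so the size of the gap is uncertain.

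The 5 Hsp90 cochaperones of this set were positive at 20 min and mixed at 60 min. This does not extend to the whole class. Of 8 further cochaperones of Hsp90 or Hsp70, read from a list described below, 4 were above 0 and 4 below at 20 min, with a median of 0.03. SBA1, the p23 protein that stabilises closed Hsp90, had 0.20 (0 min), 1.85 (20 min) and 0.09 (60 min). CPR6, a cyclophilin bound to Hsp90, had -0.16, 1.55 and 0.75. These were the members of this group beyond 2-fold at 20 min, and both were within 2-fold at 60 min. AHA1, which speeds up the Hsp90 ATPase, had -0.22, 0.82 and -0.57, and so passed from the positive to the negative side between 20 and 60 min. STI1, which links Hsp70 to Hsp90, had 0.11, 0.57 and -0.16. CDC37, which delivers kinases to Hsp90, had 0.01, 0.38 and 0.56 and was the member of this group with a larger ratio at 60 than at 20 min. The group median was 0.82 at 20 min and 0.09 at 60 min over 5 genes.

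The 4 SSA genes encode the main cytosolic Hsp70s, which bind exposed hydrophobic stretches of proteins, and each had its own pattern. SSA1 (YAL005C) had -0.08 (0 min), 4.67 (20 min) and 2.58 (60 min), and its 25.5-fold ratio at 20 min was the highest of the 34 and ranked 10 of 5597 genes. SSA2 (YLL024C), its close copy that is transcribed steadily, had -0.20, 0.91 and -0.63. The gap between SSA1 and SSA2 was 0.12 on pyruvate, and then 3.76 (20 min) and 3.21 (60 min). The 2 probes of SSA1 gave 4.67 and 4.68 at 20 min, and those of SSA2 gave 1.03 and 0.79. SSA1 and SSA2 are near-identical in sequence and their probes can bind each other's cRNA, so how the ratio divides between them is uncertain.

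The stress-induced members SSA3 and SSA4 did not move together. SSA4 had 0.04 (0 min), 1.78 (20 min) and 0.93 (60 min). SSA3 had -0.19, -0.18 and -0.18, nearly the same value on each array. Its probes gave -0.14 and -0.23 on pyruvate, -0.001 and -0.36 at 20 min, and -0.25 and -0.11 at 60 min. SSA4 was 1.96 above SSA3 at 20 min and 1.10 above it at 60 min.

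The 3 genes here for cytosolic proteins that recharge Hsp70 by exchanging its nucleotide had positive ratios after glucose. SSE1 at 60 min was within the probe gap limit of 0. The positive side was not shared by MGE1, the mitochondrial exchange factor, which had -0.37 at 20 min and -0.01 at 60 min. SSE2 (YBR169C), the stress-induced Hsp110, had 0.31 (0 min), 2.84 (20 min) and 2.28 (60 min). SSE1, the steadily made Hsp110, had 0.05, 0.58 and 0.32, which put SSE2 above it by 2.26 at 20 min and 1.97 at 60 min. FES1 (YBR101C), a cytosolic exchange factor, had 0.01, 0.68 and 1.38. FES1 was the gene of the 34 that was 2-fold positive at 60 min and not at 20 min, and both its probes were so, at 1.41 and 1.35.

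**Figure D3:**
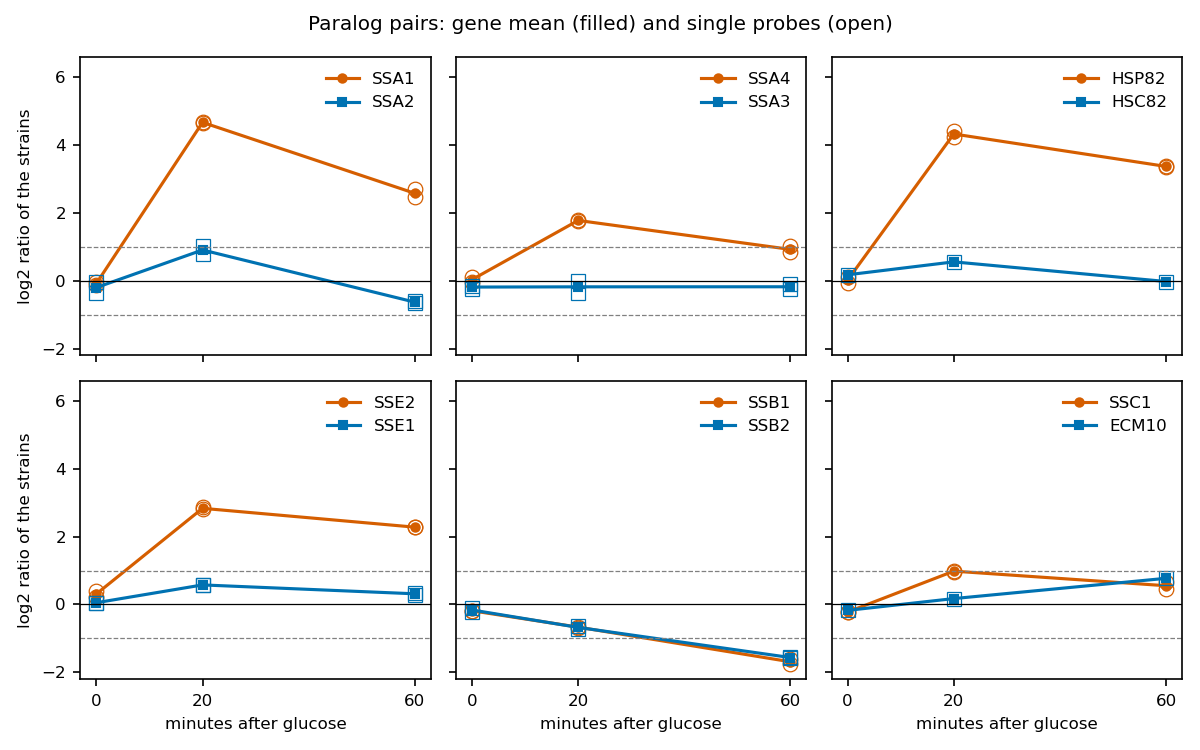
Log2 ratio of the strains against minutes after glucose for 6 paralog pairs, with filled symbols joined by lines for gene means, open symbols for single probes and dashed lines at 2-fold. SSA1, SSA4, HSP82 and SSE2 part from their partners by 1.96 to 3.77 at 20 min, while SSB1 and SSB2 overlap at each time.

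J proteins, or Hsp40s, hand substrates to Hsp70 and start its ATP hydrolysis. SIS1 (YNL007C), an essential J protein and a known Hsf1 target, had 0.49 (0 min), 3.20 (20 min) and 2.53 (60 min). YDJ1, the abundant general J protein, had -0.02, -0.13 and 0.10, and APJ1, a J protein of low abundance, had 0.27, -0.02 and -0.03. SIS1 therefore reached 9.20-fold at 20 min while the other cytosolic J proteins of this group stayed within the probe gap limit of 0. SIS1 was read by 1 probe.

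The Hsp70 system of the ribosome stood on the other side. SSB1 and SSB2, the Hsp70s that meet nascent chains as they leave the ribosome, were alike on each array. SSB1 (YDL229W) had -0.19 (0 min), -0.67 (20 min) and -1.69 (60 min), and SSB2 (YNL209W) had -0.16, -0.68 and -1.57. The genes are near-identical and their probes can read each other, so their agreement is no independent check. ZUO1 (YGR285C), the J protein that anchors the ribosome-associated complex, had -0.18, -0.71 and -1.03. SSZ1, the Hsp70-like partner of ZUO1 in that complex, had -0.09, -0.03 and -0.26 and so stayed near 0, with 0.04 at 20 min once the array median was subtracted. At 60 min SSB1 ranked 249 and SSB2 303 from the lowest of 5596 genes.

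Ribosomal protein genes were also most negative at 60 min. Over 136 cytosolic ribosomal protein genes, taken by their RPL, RPS and RPP symbols, the median was -0.29 (0 min), -0.56 (20 min) and -2.07 (60 min). The median of the 4 ribosome-associated chaperone genes was -0.17, -0.67 and -1.30. In the values as deposited both sets were more negative at each later time. With the arrays scaled to equal spread the order of 0 and 20 min turned, with medians of -0.58, -0.45 and -1.07 for the chaperones and -0.89, -0.36 and -1.69 for the ribosomal proteins. The chaperones were nearer to 0 than the ribosomal proteins at 60 min. This comparison was chosen after the values were seen.

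Mitochondrial chaperones were closer to 0, apart from HSP78. SSC1, the Hsp70 that drives protein import into the matrix, had -0.22 (0 min), 0.98 (20 min) and 0.55 (60 min). MDJ1, its J protein for folding, had -0.03, 1.38 and 0.63. MGE1, its exchange factor, had -0.43, -0.37 and -0.01. SSC1 and MDJ1 were thus positive at 20 min, beyond the probe gap limit. MGE1 was within that limit of 0 at 20 and 60 min, and its probes differed in sign at 60 min. The parts of this machine therefore did not share a value at 20 min. ECM10, a minor paralog of SSC1, had -0.17, 0.17 and 0.77 and was largest at 60 min, where SSC1 was 0.22 below it. SSQ1, the Hsp70 for iron-sulfur cluster proteins, had 0.43, -0.01 and 0.29.

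The mitochondrial chaperonin, a folding chamber built of Hsp60 with Hsp10 as its lid, also differed between its parts. HSP60 had 0.09 (0 min), 0.98 (20 min) and 0.0085 (60 min). HSP10 had -0.50, 0.13 and 0.21. HSP60 was positive at 20 min and within the probe gap limit of 0 at the other times, whereas HSP10 was beyond that limit at 0 min, on the negative side. KAR2, the Hsp70 of the endoplasmic reticulum, had -0.02, 0.87 and 0.25 by its single probe.

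HSF1, which encodes the heat shock transcription factor itself, had -0.05 (0 min), 0.03 (20 min) and 0.48 (60 min). Its probes gave 0.10 and -0.04 at 20 min. The ratio of HSF1 was therefore within the probe gap limit of 0 at 20 min, when 12 other chaperone genes were at least 2-fold positive. Hsf1 is controlled largely at the level of its protein, which was not measured.

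By compartment, the 21 genes of the cytosol and nucleus had a median of 0.91 at 20 min, with 10 at least 2-fold positive (47.6%), and 0.56 at 60 min, with 8 (38.1%), where 17.1% and 16.2% of all genes were positive. The 8 mitochondrial genes had 0.58 at 20 min, with 2 at least 2-fold positive, and 0.42 at 60 min, with 1, and such counts are near those shares of all genes. The 4 ribosome-associated genes were the compartment whose median was negative at both times.

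From 0 to 20 min the ratio moved toward the positive side in most chaperone genes. The difference of 20 minus 0 min had a median of 0.78 over the 34, against -0.09 over all genes, and was above 0 for 28 of them, against 46.3% of all genes. It was at least 1.0 for 15 of 34, where 16.1% of all genes were, and at most -1.0 for 0 of 34, where 16.4% of all genes were. SSA1 had 4.75, HSP82 4.31, HSP104 4.22, HSP78 3.24 and HSP42 3.04. SSA2 with 1.11, AHA1 with 1.04 and SSC1 with 1.21 passed 1.0 in this difference although their ratios at 20 min were below 2-fold.

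From 20 to 60 min most ratios went the other way. The difference of 60 minus 20 min had a median of -0.49 over the 34, against 0.16 over all genes, and was above 0 for 10 of them, against 58.7% of all genes. It was at most -1.0 for 6 of 34, where 10.2% of all genes were, and at least 1.0 for 0 of 34, where 8.45% of all genes were. SSA1 had -2.09, HSP104 -1.78, SBA1 -1.76, SSA2 -1.54, AHA1 -1.38 and SSB1 -1.02. For the first 5 of these the change was toward 0 or across it, and for SSB1 it was away from 0. The differences share the 20 min array, which enters them with opposite signs.

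The ratio at 60 min still lay above that at 0 min for most of the strongly positive genes. HSP82 had a difference of 60 minus 0 min of 3.35, HSP42 3.26, HSP78 2.96, SSA1 2.66, HSP104 2.44, SIS1 2.03 and SSE2 1.97. The difference was above 0 for 22 of 34, against 51.1% of all genes. It was at least 1.0 for 9 of 34, where 15.4% of all genes were, and at most -1.0 for SSB1 and SSB2, where 13.3% of all genes were. Over the 34 genes the ratios at 20 and 60 min had a Pearson correlation of 0.887, against 0.739 over all genes. Both correlations are across genes, which are not independent, and probe or dye effects of a gene are shared between arrays.

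**Figure D4:**
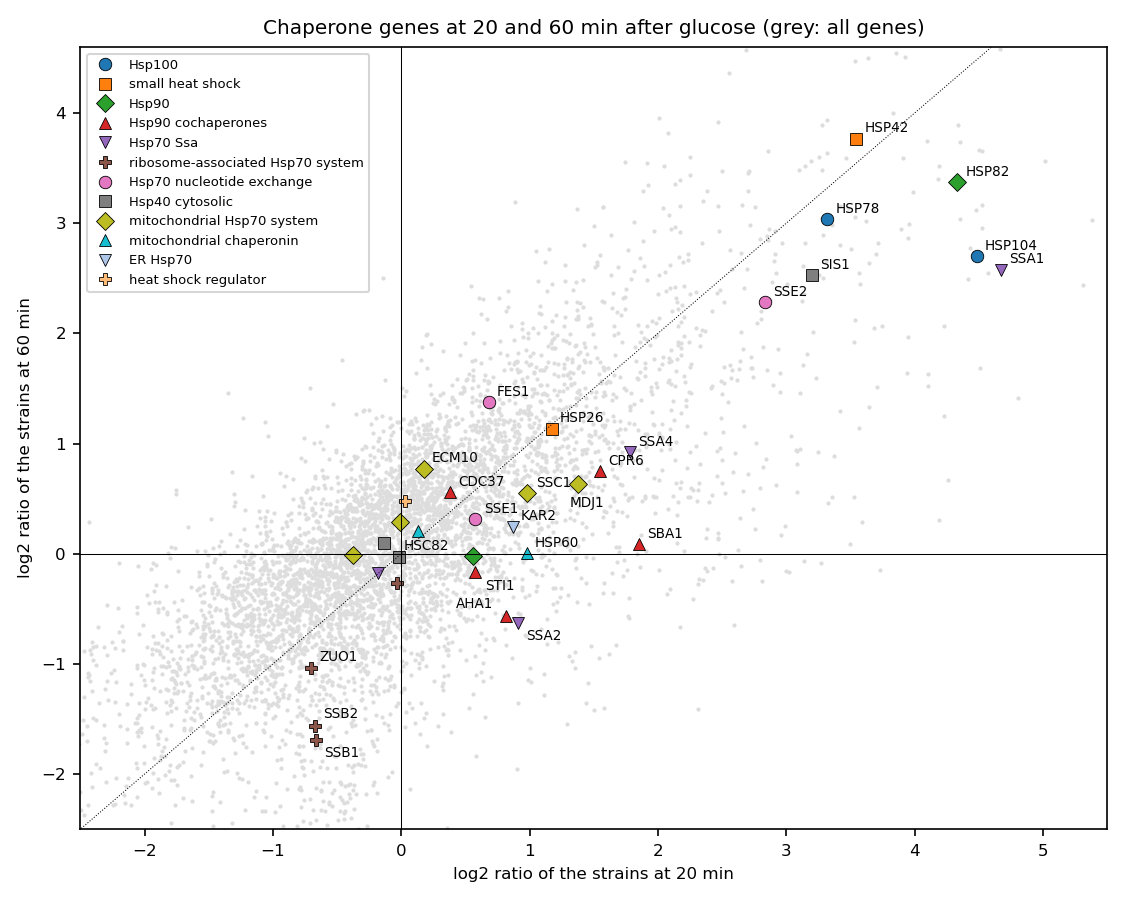
Log2 ratio of the strains at 20 min (x axis) and 60 min (y axis) for the 34 chaperone genes, coloured by family, over all genes in grey, with a dotted line where both are equal; grey points beyond the axes are not drawn. HSP104, SSA1 and SBA1 lie well below the line, HSP42 and HSP78 close to it, FES1 above it, and SSB1, SSB2 and ZUO1 at the lower left.

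Genes beyond the 34 were read from 10 lists of related function, in which 75 of 77 listed genes were measured. Their median was 0.07 at 0 min, -0.01 at 20 min and -0.05 at 60 min. Past 2-fold, 15 were positive and 6 negative at 20 min, and 12 and 3 at 60 min. The positive counts, 20.0% and 16.0% of the 75, were near the 17.1% and 16.2% of all genes. The negative counts, 8% and 4% of the 75, lay below the 16.5% and 13.6% of all genes. Of the 15 positive genes at 20 min, 7 were in the list of other heat shock genes and 4 in that of prolyl isomerases.

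Other heat shock genes went with the inducible chaperones. Of 10 measured, 7 were at least 2-fold positive at 20 min and 6 at 60 min, with list medians of 1.72 and 1.51, where 17.1% and 16.2% of all genes were positive. These genes were listed with earlier results known. HSP12, a membrane-stabilising protein, had 0.75 (0 min), 4.42 (20 min) and 2.50 (60 min), and HSP30, a plasma membrane protein, had 0.23, 4.35 and 3.04. UBI4, the stress-induced polyubiquitin gene, had 0.67, 3.53 and 3.06. BTN2, which sorts misfolded proteins, had 1.85 at 20 min and 1.59 at 60 min, while HSP31 had 1.67 and 1.42, HSP32 1.03 and 1.64, and the metallothionein CUP1-1 1.78 and -0.59. HSP150, a cell wall protein, was lowest at 20 min at -0.49. HSP32 and HSP33 are near-identical, so their values are uncertain, and so is that of CUP1-1, which has copies.

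Among regulators, MSN2 had 0.17 (0 min), 2.13 (20 min) and 1.22 (60 min), and its partner MSN4 had -0.01, -0.15 and -0.36. GAC1, a subunit of protein phosphatase 1, was lowest at 20 min with -1.06. Of these 6 genes MSN2 was the 1 that was at least 2-fold positive. That share, 16.7% at 20 and at 60 min, was near the 17.1% and 16.2% of all genes.

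Chaperonins and factors that assist new proteins were near 0 or slightly negative after glucose. The 8 subunits of the cytosolic chaperonin CCT, which folds actin and tubulin, had medians of 0.30, -0.16 and -0.26, with CCT8 highest at 20 min (0.20) and CCT5 lowest (-0.57). The 6 prefoldin subunits, which deliver actin and tubulin to CCT, had medians of -0.12, -0.58 and -0.13, between PAC10 (0.30) and GIM4 (-0.83) at 20 min. The nascent chain complex had medians of -0.08, 0.17 and -0.55 over 3 genes, between EGD1 (0.33) and BTT1 (-0.09) at 20 min. None of these 17 genes was 2-fold on any array. Over all genes, 17.1% were 2-fold positive and 16.5% negative on the 20 min array. Those shares were 16.2% and 13.6% on the 60 min array, and 1.09% and 2.25% on that of 0 min. CCT5 (-1.08) and CCT6 (-1.21) fell below -1.0 in the difference of 60 minus 0 min, where 13.3% of all genes were at most -1.0. EGD1 (-1.01) did so in that of 60 minus 20 min, against 10.2% of all genes.

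Prolyl isomerases had values past 2-fold on both sides. Of 9 measured, 4 (44.4%) were positive and 2 (22.2%) negative at 20 min, against 17.1% and 16.5% of all genes. At 60 min 1 (11.1%) was positive and 2 (22.2%) negative, against 16.2% and 13.6% of all genes. Over 9 genes, all but the positive count at 20 min are near the shares of all genes. At 20 min the mitochondrial cyclophilin CPR3 had 2.25, the cytosolic CPR1 1.90, CPR5 of the endoplasmic reticulum 1.19 and CPR2 1.13, and at 60 min these had 0.92, 0.51, 0.53 and -0.11. CPR4 had 0.78 and 1.02. FPR4, a nuclear isomerase, had -1.42 and -1.54, and CPR8 had -1.20 and -1.29. The cyclophilins that were 2-fold positive at 20 min were within 2-fold at 60 min, as CPR6 of the Hsp90 group was.

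The remaining lists, apart from 2 genes of the endoplasmic reticulum, passed 2-fold at shares near or below those of all genes. At 20 min the J proteins had 7.14% positive and 14.3% negative, the cochaperones 12.5% on each side and the mitochondrial genes 11.1% and 0%. Over all genes these shares were 17.1% and 16.5%. At 60 min the lists had 7.14% and 0%, 12.5% on each side, and 11.1% and 0%, against 16.2% and 13.6%. Of 14 further J proteins, JID1, a mitochondrial J protein, had 2.18 at 20 min and 1.86 at 60 min, while JJJ3 had -1.03 and JJJ2 -1.01 at 20 min. Of 8 further cochaperones, SGT1 had 1.10 and 1.67 and the phosphatase PPT1, which acts on Hsp90, had -1.35 and -1.30. Of 9 genes for mitochondrial protein import and quality control, the inner membrane protease YME1 had 1.83 and 1.75 and PAM18 was lowest at 20 min with -0.80. SIL1, an exchange factor for KAR2, had -0.23 and 1.18, and LHS1, the Hsp110 of the endoplasmic reticulum, had -0.29 and -0.54.

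**Figure D5:**
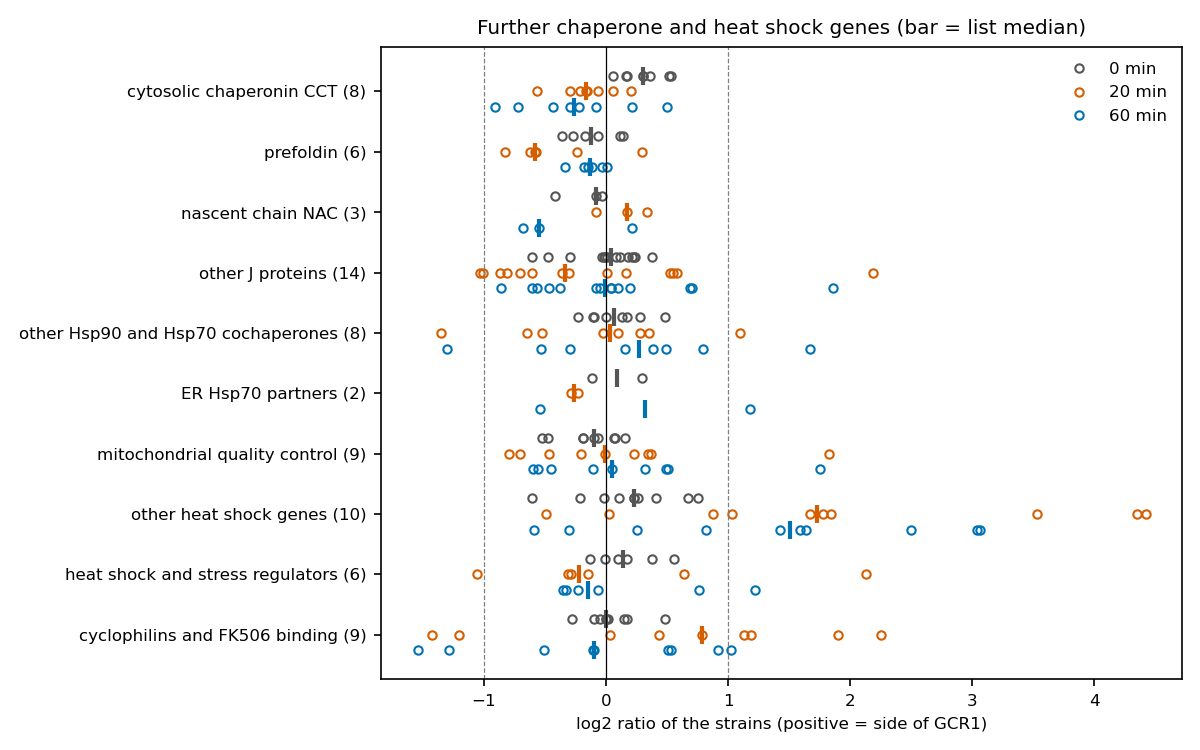
Log2 ratio of the strains for 75 further genes in 10 lists at 0, 20 and 60 min, with circles for genes, bars for list medians, the number measured in parentheses and dashed lines at 2-fold. The other heat shock genes reach 4.42 at 20 min, while all genes of the CCT, prefoldin and NAC lists lie within 2-fold.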

How the data were processed

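Total RNA of both strains was labelled with an Agilent low-input amplification kit, with Cy5 in channel 1 and Cy3 in channel 2 per the labels. The deposited table holds a log2 ratio per probe and array, made by the authors; its base was read from tied values, which differ by log2 ratios of small whole numbers. No source used here gives the scanner software, background correction, normalisation, centring or direction, and intensities were not analysed here. The median over all genes was 0.07, -0.08 and 0.05, so the columns were not centred on this median. Whether they were centred in another way is not known. Of 10807 probes, 9202 had 1 gene symbol in the platform annotation, 0 had several and 1605 had none. Probes of a gene were averaged. All 34 genes matched a RefSeq gene ID, with 0 symbols changed.

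There was 1 array per time, so no test was made, and precision is limited by the number of arrays. Dyes were not swapped on the arrays used here. The 34 genes, their families and the further lists were chosen with earlier results of these data known. All 34 are named, as are the highest and lowest gene of each further list at 20 min and each at least 2-fold on any array; MSN4 and HSP33 were added. The counting code was tested on simulated data: 100.0% of genes changed 4-fold were found on each of 3 simulated arrays of 5596 or 5597 genes. The simulated noise was set far below that change and each gene had more than 1 probe. The simulation therefore checks the code and not the sensitivity of the real arrays. Python 3.11.15, pandas 2.3.3, numpy 2.4.6 and matplotlib 3.10.9 were used. Alternatives were thresholds of 1.5-fold and 3-fold, centring, equal spread, other summaries of probes, paralog pairs counted once, low-signal genes left out and, chosen after seeing the data, genes with more than 1 probe.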

Additional observations from a re-analysis of the deposited data

Results flagged for a closer look

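Of the 34 genes, 3 had ratios of opposite sign at different times, each beyond the 95% limit of the probe gap on its array. With 1 array per time the difference was not tested. The same count was not made over all genes, so it is not known whether 3 of 34 is many or few. HSP26 had -0.51 (0 min), 1.17 (20 min) and 1.14 (60 min). SSA2 had 0.91 at 20 min and -0.63 at 60 min. AHA1, read by 1 probe, had 0.82 at 20 min and -0.57 at 60 min.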

How the results depend on the processing

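No paired analysis was possible because there is 1 array per time and the labels give no replicate numbers, and leaving out a replicate was not possible for the same reason. Of 96 values of the counts, medians and differences under an alternative, 90 stayed near the main value. For counts this meant within 1.5 times, for medians within the spread of a single probe, and for differences within that of both arrays combined. The median over probes gave 12 of the 96 values and could not differ, as each of the 34 genes had 1 or 2 probes. Leaving out low-signal genes gave another 12, which could not differ either, as it removed 0 of the 34 genes. A change of sign was looked for only in medians of at least 1.0 in size, and none was that large. At 20 min a threshold of 1.5-fold gave 3 negative genes in place of 0, where 1623 of all genes (29.0%) were negative. At 60 min a threshold of 3-fold left 1 in place of 3, where 296 of all genes (5.29%) were. Scaling the arrays to equal spread, which widens the 0 min array by construction, gave 2 positive genes (HSP42 and SIS1) and 3 negative genes (HSP26, MGE1 and HSP10) at 0 min, where 471 and 672 of all genes were then counted, and a median of -0.22. Equal spread left 11 positive genes at 20 min and 8 at 60 min, both without HSP26, against 12.8% and 10.6% of all genes. It left 2 negative genes at 60 min, without ZUO1, against 9.70% of all genes. With the 23 genes read by more than 1 probe, 7 were positive at 20 min, a count over fewer genes, and the median of 60 minus 20 min was -0.28 in place of -0.49. Subtracting each array's median left 11 genes above 0 at 0 min in place of 16, 28 at 20 min in place of 25 and 22 at 60 min in place of 23. By construction this step puts about as many of all genes above 0 as below it. The genes that changed side were HSP82, CDC37, SSA4, SSE1 and FES1 at 0 min, SSZ1, APJ1 and SSQ1 at 20 min and HSP60 at 60 min. Leaving out low-signal values, which equal the ratio of 2 small whole numbers (up to 8, tolerance 0.001) once the array's offset is removed, took away 0 of the 34 genes.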
